A study of Mus musculus with 11 samples.

Results

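The genes described here encode the enzymes that cut and cross-link the extracellular matrix of the mouse heart and the inhibitors that hold them back. They comprise the matrix metalloproteinases (Mmp), their tissue inhibitors (Timp), the Adamts proteases and Adamts-like proteins, and the lysyl oxidases Lox and Loxl1 to Loxl4. They were taken by symbol from the protein-coding genes of a GENCODE annotation of GRCm38, which gave 55 genes of 55487 identifiers in the table, made up of 22 Mmp, 4 Timp, 19 Adamts, 5 Adamts-like and 5 lysyl oxidase genes. RNA was sequenced from hearts of female C57BL/6NTac mice, aged 8 weeks when their diets began and fed them for 24 weeks. The cocktail-treated obese group (3 libraries) ate an obesogenic diet, which joined a feed with 60.3% of its energy from fat to sweetened condensed milk, and from week 16 was gavaged with a cocktail of 5 mg/kg dasatinib plus 50 mg/kg quercetin in 10% PEG400. The obese group (4 libraries) ate the same diet and was gavaged with the PEG400 vehicle. The control-diet group (4 libraries) ate a feed with 10.4% of its energy from fat, and no source used here says whether these mice were gavaged too. Together dasatinib, which inhibits tyrosine kinases, and quercetin, a flavonoid from plants, serve as a senolytic, a treatment meant to clear senescent cells. Diet and vehicle gavage cannot be told apart where obese hearts are set against control-diet hearts. Nothing in the labels says that libraries came from different animals, and the spread behind each p-value is therefore that between libraries, part of which may be technical.

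Matrix metalloproteinases are zinc proteases, mostly secreted as inactive precursors, that cut collagens, elastin and other matrix proteins, and Timp proteins block them by occupying the active site. Adamts proteases cut proteoglycans such as versican, trim procollagens or act on fibrillin microfibrils, and Adamts-like proteins share their accessory domains but carry no protease domain. Lysyl oxidases oxidise lysines in collagen and elastin, the step that lets fibres cross-link, and in the heart these families set how stiff and how quickly renewed the matrix between muscle cells is.

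Totals ran from 64.2 to 72.3 M counts in cocktail-treated libraries, 52.7 to 67.2 M in obese libraries and 73.1 to 103.3 M in control-diet libraries. Summed cardiomyocyte markers were 28821 to 33960 CPM (counts scaled to a common library size) in cocktail-treated libraries, 22909 to 34704 CPM in obese libraries and 28537 to 40696 CPM in control-diet libraries, and 3 of 7 were lower in obese than in control-diet hearts. Mitochondrial genes took 17.8% to 22.4% of counts in cocktail-treated libraries, 21.4% to 24.5% in obese libraries and 28.2% to 32.3% in control-diet libraries, with no overlap between control-diet libraries and the rest. The share of counts in annotation classes of intronic and unproven loci, called the intronic share below, was 0.509% to 0.671% in cocktail-treated libraries, 0.663% to 0.811% in obese libraries and 0.286% to 0.590% in control-diet libraries, and every obese library lay above every control-diet library. Atrial markers (Nppa, Sln, Myl4, Myl7 and Bmp10) summed to 43.4, 2597 and 5388 CPM in cocktail-treated libraries, 15.5, 106.8, 1979 and 185.4 CPM in obese libraries and 30.7, 39.5, 33.9 and 94.0 CPM in control-diet libraries. Cocktail-treated replicates 2 and 3 and obese replicate 3 therefore held far more atrial RNA than the other 8 libraries, and results that rest on them are given with and without them.

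Of the 55 genes, 49 held enough counts to be tested and 6 did not. Mmp10 and Mmp1b had no count in any library. Mmp7 had 8 counts, all in obese replicate 1, Adamts16 and Mmp20 had 4 each, all in obese replicate 4, and Adamts13 had 27 in all. A further 7 genes, among them Mmp12, the macrophage elastase, and Mmp8, the neutrophil collagenase, were tested but averaged under 1 CPM in each group. On chromosome 9, 9 Mmp genes, the collagenases, stromelysins and their relatives, lie side by side between 7272514 and 7699585, and 5 of them were tested.

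Levels of different genes are compared here as CPM per kilobase of exon, with CPM from library sizes scaled by TMM. Timp3, an inhibitor that stays bound to the matrix, was the most abundant, at 67.7 ± 9.50 CPM per kb in cocktail-treated hearts (SD, n = 3), 52.1 ± 16.5 in obese hearts (SD, n = 4) and 38.4 ± 7.28 in control-diet hearts (SD, n = 4). Timp2, an inhibitor that also helps to activate Mmp2, came second at 38.4 ± 14.8, 25.8 ± 12.6 and 24.4 ± 3.47 CPM per kb in the same order of groups. The ranges of Timp3 and Timp2 overlapped in obese and in control-diet libraries and not in cocktail-treated ones. The most abundant protease was Mmp2 (gelatinase A), followed by Mmp15, a membrane-bound metalloproteinase, whose ranges overlapped with those of Mmp2 in all 3 groups. Adamtsl5, a protein of fibrillin microfibrils, stood above Mmp2 without overlap in each group. Adamtsl4 averaged 19.2, 15.7 and 11.1 CPM per kb in cocktail-treated, obese and control-diet hearts and Mmp2 14.6, 13.8 and 11.8, and their ranges overlapped in each group.

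**Figure D1:**
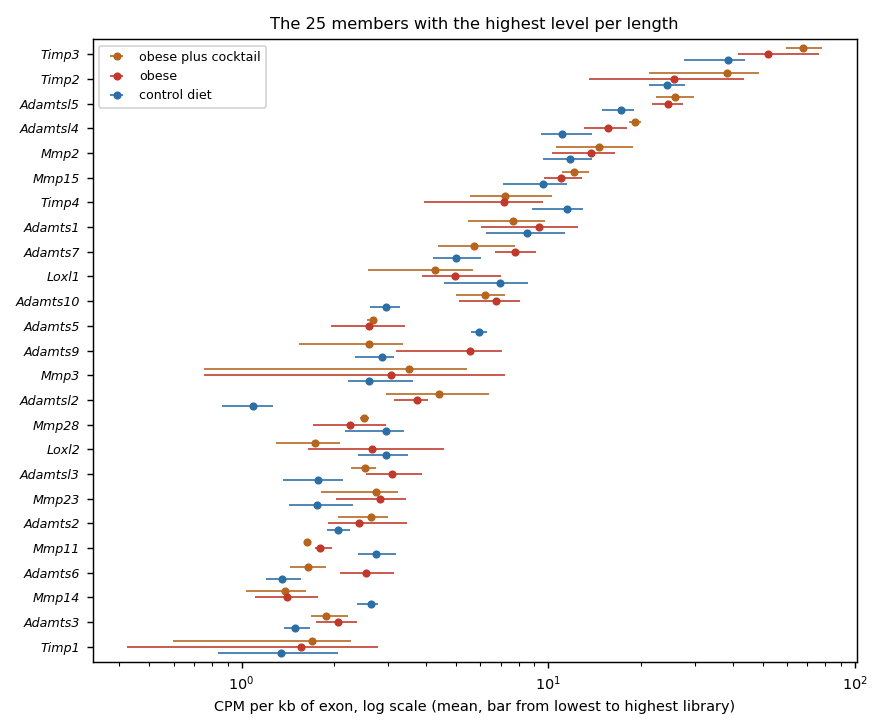
Level of the 25 genes with the highest mean over all libraries, in CPM per kilobase of exon on a log axis. Points are group means and bars run from the lowest to the highest library of cocktail-treated obese (n = 3), obese (n = 4) and control-diet hearts (n = 4). Timp3 and Timp2 stand at the top, and Adamtsl2, Adamts10 and Adamts5 are genes whose obese and control-diet bars do not overlap.

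The 250 bases before the start of 4 of these genes are shown as examples. Adamtsl2 had the largest called rise of these genes in obese hearts, and Mmp14 fell. Adamts9 was higher in obese than in control-diet hearts and had one of the smallest p-values for the cocktail. Mmp3, which was called in no comparison, stands for the chromosome 9 cluster. The sequences are from RefSeq on GRCm38.p6, written 5′ to 3′ on the gene's own strand. RefSeq windows were found for 36 of the 55 genes.
Adamtsl2: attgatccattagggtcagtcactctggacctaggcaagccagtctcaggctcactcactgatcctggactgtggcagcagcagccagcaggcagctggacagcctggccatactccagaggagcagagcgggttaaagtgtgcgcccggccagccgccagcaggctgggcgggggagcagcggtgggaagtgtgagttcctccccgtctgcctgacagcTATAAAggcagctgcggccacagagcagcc
Adamts9: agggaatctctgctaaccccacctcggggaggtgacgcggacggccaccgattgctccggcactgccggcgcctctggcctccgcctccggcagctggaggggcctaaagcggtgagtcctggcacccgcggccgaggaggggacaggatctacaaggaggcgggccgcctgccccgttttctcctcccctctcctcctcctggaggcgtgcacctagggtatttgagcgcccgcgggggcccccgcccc
Mmp14: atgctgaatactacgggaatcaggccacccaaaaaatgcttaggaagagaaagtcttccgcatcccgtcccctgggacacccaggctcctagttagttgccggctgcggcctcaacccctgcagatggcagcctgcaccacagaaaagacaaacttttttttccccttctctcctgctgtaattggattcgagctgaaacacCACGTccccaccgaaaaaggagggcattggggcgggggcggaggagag
Mmp3: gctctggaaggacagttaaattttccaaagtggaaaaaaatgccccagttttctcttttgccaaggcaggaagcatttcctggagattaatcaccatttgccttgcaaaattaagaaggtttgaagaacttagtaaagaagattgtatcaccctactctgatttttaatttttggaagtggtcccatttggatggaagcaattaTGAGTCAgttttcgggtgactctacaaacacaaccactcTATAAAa
These windows lie at chr2:27079129-27079378 on the plus strand, chr6:92943535-92943784 on the minus strand, chr14:54431348-54431597 on the plus strand and chr9:7445572-7445821 on the plus strand. Capitals mark matches on either strand to 3 motifs: TGANTCA, the letters of an AP-1 site, ACGTG, the core of a hypoxia response element, and TATAAA, a core promoter element. Matches to different motifs did not overlap in these 4 windows. The Adamtsl2 window held TATAAA 30 bases before the start, the Mmp14 window held ACGTG on the opposite strand 48 bases before it, and the Mmp3 window held TGANTCA at 46 and TATAAA at 7 bases before it. None of the 3 was in the Adamts9 window. The AP-1 letters were in 7 of 39 windows of these genes, all in the chromosome 9 cluster (Mmp13, Mmp12, Mmp1b, Mmp3, Mmp10, Mmp20 and Mmp7), and in 6.73% of 32536 windows of all genes. ACGTG was in 7 of the 39 and in 16.7% of all windows, and TATAAA in 9 of the 39 and in 12.3% of all windows. A match is a description of the letters and not of a site in use.

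Obese hearts were set against control-diet hearts to see how these genes differed with the obesogenic diet. Adamts proteases and Adamts-like proteins made up most of the rises: Adamtsl2, which binds fibrillin and restrains TGF-beta, averaged 29.9 ± 3.29 CPM in obese hearts and 8.68 ± 1.47 CPM in control-diet hearts (SD, n = 4 each), and Adamts10, which acts on fibrillin microfibrils, averaged 55.8 ± 10.3 and 24.4 ± 2.60 CPM. The falls included the aggrecanases Adamts5 and Adamts4, the cross-linking enzyme Lox and the membrane metalloproteinase Mmp14. Adamts5 averaged 28.1 ± 6.71 CPM in obese hearts and 64.1 ± 3.11 CPM in control-diet hearts, and Lox averaged 3.59 ± 1.61 and 9.64 ± 1.90 CPM. None of the 4 Timp genes passed the test.

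By edgeR's quasi-likelihood test, 20 of 49 genes passed an adjusted p of 0.05, or 40.8%, beside 30.1% of all 23779 genes tested. Of these, 14 were higher in obese hearts (28.6%, beside 14.4% of all genes) and 6 lower (12.2%, beside 15.7%). The median log2 fold change was 0.24 over the 49 genes and 0.11 over all genes. At an unadjusted p under 0.05 there were 29 genes, beside 42.7% of all genes. The 4 obese libraries did not overlap with the 4 control-diet libraries in 19 of the 49 genes, beside 28.5% of all genes, and 17 of those 19 passed the test. The intronic share separated the same groups. With it as a covariate 2 of 49 genes were higher (Adamtsl3 and Mmp15) and 0 lower, beside 35 higher and 86 lower of all 23779. Diet and this share therefore cannot be told apart. The mitochondrial share separated these groups too, and its part in the counts was not tested. Without control-diet replicate 4, 8 genes were higher, beside 2117 of all 23668 genes tested.

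**Figure D2:**
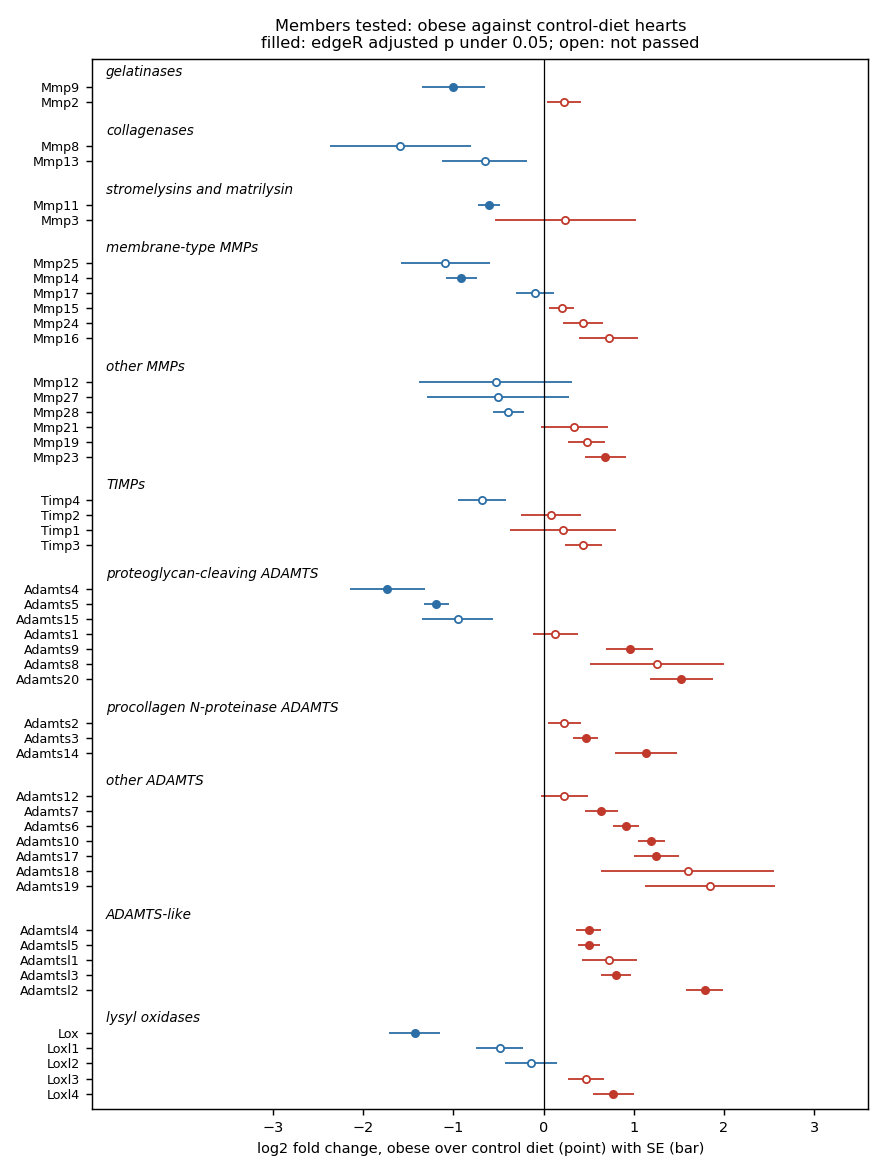
Log2 fold change of obese over control-diet hearts (x axis, point) with its standard error (bar) for the 49 genes tested, grouped by role; filled points passed an edgeR adjusted p of 0.05. The Adamts-like group lies wholly to the right of 0, with 4 of its 5 genes filled, while none of the 4 Timp points is filled.

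Among 18 metalloproteinases tested in this comparison, 1 was higher and 3 were lower, beside 14.4% of all genes higher and 15.7% lower. The same shares of all genes stand beside the counts of families and marker lists in obese hearts below. Mmp14 (MT1-MMP), a membrane enzyme that cuts collagen and activates the Mmp2 precursor, had 6.17, 9.64 and 9.03 CPM in cocktail-treated libraries, 6.58, 10.6, 9.12 and 7.11 CPM in obese libraries and 16.6, 14.2, 16.6 and 15.5 CPM in control-diet libraries. Every obese library lay below every control-diet library, and Mmp14 was 1.88-fold lower, with a log2 fold change of -0.91 ± 0.17 (SE) and an edgeR adjusted p of 0.00223. It lies on chromosome 14 from 54431612 to 54445364. Mmp11 (stromelysin-3), which is activated inside the cell by furin, had 4.50, 4.66 and 4.46 CPM in cocktail-treated libraries, 4.91, 4.81, 4.81 and 5.46 CPM in obese libraries and 6.68, 7.47, 7.47 and 8.83 CPM in control-diet libraries. The obese values sat close together below all control-diet values, and the gene was 1.52-fold lower, with a log2 fold change of -0.61 ± 0.12 (SE) and an edgeR adjusted p of 0.00350. Mmp11 overlaps Chchd10 on the opposite strand over 3367 bases, and Chchd10 averaged 205, 169.9 and 281 CPM in cocktail-treated, obese and control-diet hearts, so its reads and those of Mmp11 cannot be told apart without a stated use of strand.

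The 2 gelatinases cut denatured collagen and basement membrane collagen. Mmp9 (gelatinase B), which neutrophils carry, had 0.621, 1.89 and 0.573 CPM in cocktail-treated libraries, 0.839, 0.723, 0.975 and 0.801 CPM in obese libraries and 1.32, 1.52, 2.09 and 1.75 CPM in control-diet libraries. All 4 obese values were below all control-diet values, and Mmp9 was 2.00-fold lower, with a log2 fold change of -0.999 ± 0.35 (SE) and an edgeR adjusted p of 0.0440. This call was lost in 12 of 22 alternatives, 7 of which left out 1 library: control-diet replicate 1, 3 or 4, or any 1 of the 4 obese replicates. Summed neutrophil markers were 2.73 to 3.62 CPM in cocktail-treated libraries, 4.15 to 5.66 CPM in obese libraries and 4.53 to 7.97 CPM in control-diet libraries. Of 5 tested markers, 1 was lower in obese hearts, and Ly6g was at 0 in 10 of 11 libraries. Their part in the Mmp9 result was not tested. Mmp2 (gelatinase A) had 35.7, 63.6 and 48.3 CPM in cocktail-treated libraries, 34.8, 55.6, 55.7 and 39.8 CPM in obese libraries and 46.6, 32.5, 40.4 and 39.2 CPM in control-diet libraries. Obese and control-diet values overlapped and the test was not passed (log2 fold change 0.23, SE 0.19, edgeR adjusted p = 0.392).

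Mmp23, a membrane-anchored enzyme, was the metalloproteinase that rose, with 4.26, 7.57 and 7.42 CPM in cocktail-treated libraries, 4.76, 7.94, 8.02 and 5.70 CPM in obese libraries and 5.41, 3.77, 3.93 and 3.34 CPM in control-diet libraries. Obese and control-diet values overlapped, since obese replicate 1 was below control-diet replicate 1. It was 1.61-fold higher, with a log2 fold change of 0.68 ± 0.23 (SE) and an edgeR adjusted p of 0.0388, and the call was lost without control-diet replicate 2, 3 or 4 or obese replicate 2 or 3. Without the 3 libraries with high atrial markers its log2 fold change was 0.58 (edgeR adjusted p = 0.0733). Mmp19 and Mmp24 (MT5-MMP) did not overlap between obese and control-diet libraries but did not pass (adjusted p = 0.0987 and 0.153). Mmp19 had 4.32, 6.48 and 7.91 CPM in cocktail-treated libraries, 4.11, 4.46, 6.02 and 4.18 CPM in obese libraries and 3.86, 2.51, 3.59 and 3.53 CPM in control-diet libraries. Mmp24 had 1.57, 1.41 and 2.29 CPM in cocktail-treated libraries, 1.30, 1.35, 1.17 and 1.15 CPM in obese libraries and 0.906, 1.02, 1.04 and 0.702 CPM in control-diet libraries. For both genes the cocktail-treated libraries were also above the control-diet ones. Mmp3 (stromelysin-1) was spread widely, with 1.36, 7.83 and 9.82 CPM in cocktail-treated libraries, 1.51, 6.35, 13.0 and 1.35 CPM in obese libraries and 4.13, 4.13, 3.99 and 6.51 CPM in control-diet libraries. Obese replicate 3 was above all control-diet values, replicate 2 among them, and replicates 1 and 4 below them. Mmp3 and the 10 tested metalloproteinases not described one by one had adjusted p between 0.101 and 0.839.

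The Timp genes are the inhibitors of these enzymes. Timp1, a secreted inhibitor often induced in fibrosis, had 0.532, 2.01 and 1.97 CPM in cocktail-treated libraries, 0.377, 2.47, 2.14 and 0.554 CPM in obese libraries and 1.83, 0.746, 1.20 and 0.999 CPM in control-diet libraries, a low level throughout. Timp2 had 83.3, 189.7 and 176 CPM in cocktail-treated libraries, 53.0, 94.2, 169 and 85.5 CPM in obese libraries and 109, 82.8, 104 and 83.8 CPM in control-diet libraries. For both genes the obese range enclosed the control-diet range, and neither passed (Timp1 log2 fold change 0.21, SE 0.59, edgeR adjusted p = 0.808; Timp2 log2 fold change 0.08, SE 0.33, edgeR adjusted p = 0.874). Timp3, which also blocks Adamts proteases, had 485, 533 and 636 CPM in cocktail-treated libraries, 338, 345, 623 and 391 CPM in obese libraries and 341, 358, 328 and 226 CPM in control-diet libraries. Obese replicate 3 was far above the other obese libraries, which overlapped with the control-diet ones (log2 fold change 0.44, SE 0.21, edgeR adjusted p = 0.121). Timp4, the inhibitor best known from heart muscle, had 60.6, 34.6 and 32.9 CPM in cocktail-treated libraries, 56.5, 23.2, 49.7 and 40.0 CPM in obese libraries and 76.7, 75.5, 67.4 and 52.1 CPM in control-diet libraries. Obese replicate 1 lay among the control-diet values and the other obese libraries below them all (log2 fold change -0.68, SE 0.27, edgeR adjusted p = 0.0743). Timp4 was called lower in 4 of 22 alternatives: by DESeq2 (adjusted p = 0.0232), and by edgeR with the replicate block (adjusted p = 0.0336), without obese replicate 1 (adjusted p = 0.0472) and without cocktail-treated replicate 1 (adjusted p = 0.0410).

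Several of these genes were highest in the libraries with high atrial markers. Timp2 was 189.7, 176 and 169 CPM in cocktail-treated replicates 2 and 3 and obese replicate 3, above every other library. Timp3, Mmp3 and Mmp19 were also higher in these 3 libraries than in every other library. Adamts19, a protease known from heart valves, had 0.636, 6.55 and 6.36 CPM in cocktail-treated libraries, 1.25, 3.54, 6.02 and 1.70 CPM in obese libraries and 0.481, 1.48, 0.752 and 0.780 CPM in control-diet libraries, and its 3 highest values were in those same libraries. Adamts8 had 0.518, 4.26 and 5.30 CPM in cocktail-treated libraries, 0.411, 2.52, 2.43 and 0.612 CPM in obese libraries and 0.849, 0.416, 0.426 and 0.811 CPM in control-diet libraries, with obese replicate 2 level with obese replicate 3. Neither gene passed between obese and control-diet hearts (edgeR adjusted p = 0.0765 for Adamts19 and 0.218 for Adamts8). Adamts19 was called in this comparison without the 3 libraries with high atrial markers and without cocktail-treated replicate 1. DESeq2, the replicate block and a fit of 2 groups at a time called it too. Without the 3 libraries, the log2 fold change of obese over control diet was -0.29 for Timp2 and -0.08 for Timp1. Mesothelial markers, from the cells that cover the heart, summed to 6.68 to 35.6 CPM in cocktail-treated libraries, 8.00 to 13.0 CPM in obese libraries and 4.70 to 5.91 CPM in control-diet libraries. Adipocyte markers summed to 0.991, 10.6 and 9.26 CPM in cocktail-treated libraries, 0.394, 8.83, 8.10 and 1.33 CPM in obese libraries and 0.255, 0.344, 0.303 and 0.453 CPM in control-diet libraries, and 4 of 5 were higher both in obese and in cocktail-treated than in control-diet hearts. Adipoq, which defines these cells, was at 0 in 3 of the 4 control-diet libraries. Timp1, Mmp2, Mmp19, Mmp23, Adamts2, Adamts8, Adamts19, Adamtsl1 and Loxl3 each had their 4 highest values in the same 4 libraries as the adipocyte sum. These libraries were cocktail-treated replicates 2 and 3 and obese replicates 2 and 3. Fibroblast, mesothelial and Schwann cell marker sums were also highest in these 4 libraries. Fibroblast markers summed to 854 and 740 CPM in the cocktail-treated ones and to 670 and 897 CPM in the obese ones. The next highest fibroblast sum was 636 CPM, in control-diet replicate 1. The part of atrial, mesothelial, adipocyte, fibroblast and Schwann cell RNA in these levels was not tested.

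**Figure D3:**
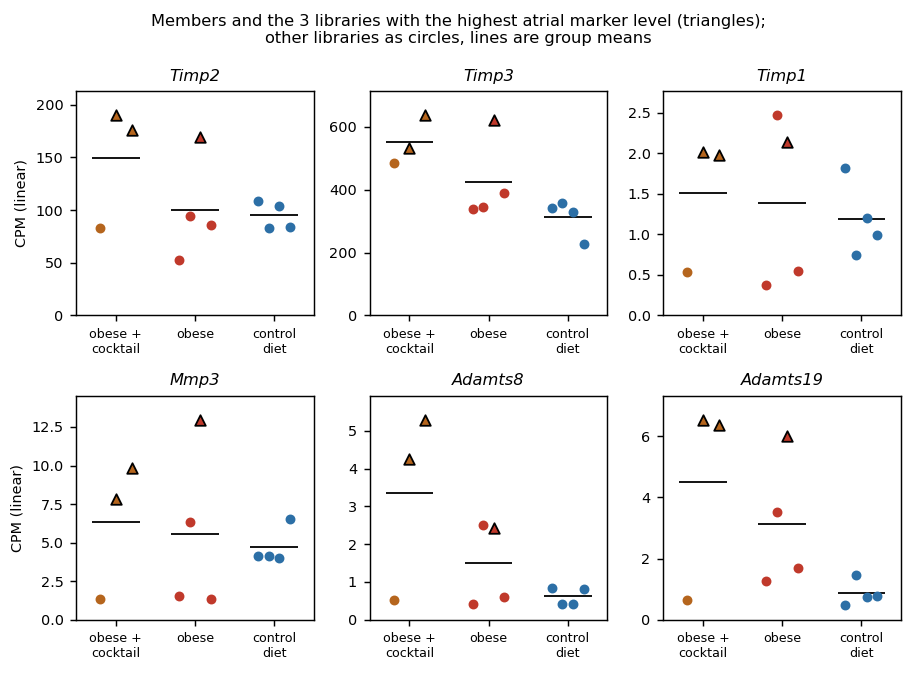
CPM (linear axis from 0) of 6 genes in each library of cocktail-treated obese (n = 3), obese (n = 4) and control-diet hearts (n = 4), with lines at group means; triangles are the 3 libraries with the highest atrial marker level. For Timp2, Timp3, Mmp3 and Adamts19 the 3 triangles are above all circles, and for Timp1 and Adamts8 an obese circle is above the obese triangle.

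The proteoglycan-cleaving Adamts proteases moved in both directions, 2 of 7 tested being higher and 2 lower. Adamts5, an aggrecanase that also cuts versican, had 29.3, 29.6 and 27.7 CPM in cocktail-treated libraries, 21.1, 29.3, 36.9 and 25.3 CPM in obese libraries and 68.0, 64.7, 63.1 and 60.6 CPM in control-diet libraries. The obese and cocktail-treated values were all below the control-diet ones by a wide gap, and Adamts5 was 2.28-fold lower, with a log2 fold change of -1.19 ± 0.14 (SE) and an edgeR adjusted p of 0.000229 in obese hearts. It lies on chromosome 16 from 85856173 to 85901828, near Adamts1. Adamts4, the other main aggrecanase, had 0.133, 0.165 and 0.158 CPM in cocktail-treated libraries, 0.240, 0.912, 0.320 and 0.219 CPM in obese libraries and 1.16, 1.89, 1.02 and 1.56 CPM in control-diet libraries. Its obese values were below all control-diet values, with replicate 2 nearest to them, and it was 3.32-fold lower, with a log2 fold change of -1.73 ± 0.42 (SE) and an edgeR adjusted p of 0.00818. Since the use of strand is not stated, the low counts of Adamts4 are uncertain where genes overlap.

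Adamts9, a versican-cutting protease made in blood vessels, had 50.7, 23.1 and 43.6 CPM in cocktail-treated libraries, 106, 89.9, 48.2 and 90.7 CPM in obese libraries and 44.7, 45.9, 35.2 and 47.1 CPM in control-diet libraries. Obese replicates 1, 2 and 4 were high, replicate 3 was just above the highest control-diet library, and Adamts9 was 1.94-fold higher, with a log2 fold change of 0.95 ± 0.26 (SE) and an edgeR adjusted p of 0.0171. It lies on chromosome 6 from 92772699 to 92943492 and is overlapped on the opposite strand by 3 genes, the most abundant of which averaged 19.9, 17.5 and 29.8 CPM in cocktail-treated, obese and control-diet hearts. The other two had their highest mean in obese hearts, as Adamts9 did. A730049H05Rik averaged 2.26, 5.90 and 2.05 CPM and Gm15737 3.49, 5.55 and 3.79 CPM in the same order of groups, and their reads and those of Adamts9 cannot be told apart without a stated use of strand. Adamts20, its closest relative, had 0.547, 1.14 and 1.08 CPM in cocktail-treated libraries, 0.925, 1.70, 0.751 and 0.830 CPM in obese libraries and 0.283, 0.416, 0.280 and 0.484 CPM in control-diet libraries. All obese values were above all control-diet values, at a low level, and it was 2.88-fold higher, with a log2 fold change of 1.53 ± 0.35 (SE) and an edgeR adjusted p of 0.00647. Adamts1, another versican-cutting enzyme, had 29.1, 41.3 and 51.7 CPM in cocktail-treated libraries, 43.3, 66.3, 32.0 and 56.2 CPM in obese libraries and 60.3, 33.2, 38.5 and 48.9 CPM in control-diet libraries. Its groups overlapped throughout (log2 fold change 0.13, SE 0.25, edgeR adjusted p = 0.722). Adamts15 did not pass either (edgeR adjusted p = 0.0922), although DESeq2 and limma voom each called it. It was also called without obese replicate 3 and without the 3 libraries with high atrial markers.

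**Figure D4:**
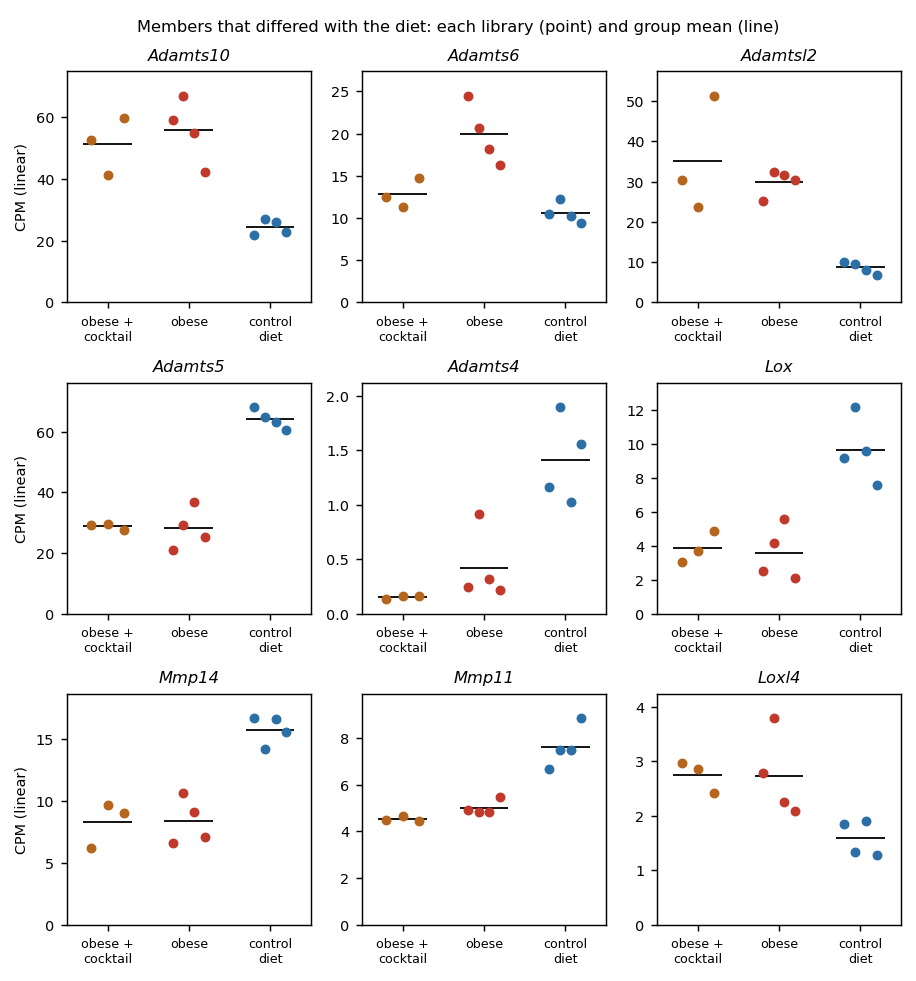
CPM (linear axis from 0) of 9 genes that differed between obese and control-diet hearts, one point per library and a line at the mean of cocktail-treated obese (n = 3), obese (n = 4) and control-diet hearts (n = 4). In all 9 panels the obese points are on one side of the control-diet points, and in Adamts5, Lox, Mmp14 and Mmp11 the cocktail-treated points lie near the obese ones.

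Adamts2, Adamts3 and Adamts14 remove the amino-terminal propeptide of fibrillar procollagens, and 2 of the 3 were higher. Adamts3, which also takes part in activating the lymphatic growth factor Vegfc, had 9.42, 9.14 and 12.1 CPM in cocktail-treated libraries, 12.9, 9.48, 10.3 and 12.2 CPM in obese libraries and 8.39, 9.08, 7.58 and 7.44 CPM in control-diet libraries. All obese values were above all control-diet ones and the gene was 1.38-fold higher, with a log2 fold change of 0.47 ± 0.14 (SE) and an edgeR adjusted p of 0.0220, a call lost without control-diet replicate 3 or 4 or obese replicate 1 or 4. Adamts14 had 2.20, 1.52 and 1.78 CPM in cocktail-treated libraries, 4.25, 2.52, 1.23 and 2.40 CPM in obese libraries and 1.16, 1.39, 1.51 and 0.655 CPM in control-diet libraries. Obese replicate 3 lay among the control-diet values, and Adamts14 was 2.19-fold higher, with a log2 fold change of 1.13 ± 0.34 (SE) and an edgeR adjusted p of 0.0249, a call lost without control-diet replicate 1 or 4 or obese replicate 1. Adamts2 had 19.3, 26.7 and 28.0 CPM in cocktail-treated libraries, 17.9, 32.4, 22.1 and 18.0 CPM in obese libraries and 21, 17.7, 20.5 and 17.9 CPM in control-diet libraries, with overlapping groups (log2 fold change 0.23, SE 0.18, edgeR adjusted p = 0.361).

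Among the other 7 Adamts proteases tested, 4 were higher and 0 lower. Adamts10 had 52.7, 41.2 and 59.8 CPM in cocktail-treated libraries, 59.2, 66.8, 54.9 and 42.2 CPM in obese libraries and 21.7, 27.1, 26.1 and 22.7 CPM in control-diet libraries. The lowest obese library was well above the highest control-diet library, and Adamts10 was 2.29-fold higher, with a log2 fold change of 1.19 ± 0.15 (SE) and an edgeR adjusted p of 0.000290. It lies on chromosome 17 from 33524204 to 33553782. Adamts6, its closest relative, had 12.5, 11.3 and 14.7 CPM in cocktail-treated libraries, 24.4, 20.7, 18.1 and 16.3 CPM in obese libraries and 10.4, 12.2, 10.2 and 9.38 CPM in control-diet libraries. All obese values were above all control-diet values, while the cocktail-treated values were nearer to the control-diet ones. Adamts6 was 1.89-fold higher, with a log2 fold change of 0.91 ± 0.14 (SE) and an edgeR adjusted p of 0.000775.

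Adamts17, like Adamts10 a gene of the human Weill-Marchesani syndromes of short stature and dislocated lens, had 1.43, 1.11 and 2.18 CPM in cocktail-treated libraries, 1.76, 2.00, 2.11 and 1.37 CPM in obese libraries and 0.877, 0.660, 0.841 and 0.655 CPM in control-diet libraries. Obese values were all above control-diet values, and it was 2.38-fold higher, with a log2 fold change of 1.25 ± 0.25 (SE) and an edgeR adjusted p of 0.00315. Adamts7, which cuts cartilage oligomeric matrix protein and lies at a human coronary artery disease locus, had 48.8, 27.4 and 31.5 CPM in cocktail-treated libraries, 57.2, 42.1, 48.2 and 48.8 CPM in obese libraries and 26.4, 37.8, 34.8 and 26.9 CPM in control-diet libraries. Each obese library was above each control-diet library, and it was 1.56-fold higher, with a log2 fold change of 0.64 ± 0.18 (SE) and an edgeR adjusted p of 0.0166, a call lost without control-diet replicate 1 or 4. Adamts7 overlaps Tbc1d2b on the opposite strand, which averaged 26.3, 28.5 and 22.9 CPM in cocktail-treated, obese and control-diet hearts. Adamts12 and Adamts18 were not called (adjusted p = 0.532 and 0.219).

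The Adamts-like proteins, several of which bind fibrillin, have no protease activity, and 4 of the 5 were higher in obese hearts. Adamtsl2 had 30.4, 23.7 and 51.2 CPM in cocktail-treated libraries, 25.1, 32.4, 31.6 and 30.4 CPM in obese libraries and 10.1, 9.59, 8.12 and 6.88 CPM in control-diet libraries. Its lowest obese value was over the highest control-diet value by a wide gap, and it was 3.44-fold higher, with a log2 fold change of 1.78 ± 0.21 (SE) and an edgeR adjusted p of 0.000243. It lies on chromosome 2 from 27079379 to 27108981. Adamtsl3 had 21.2, 19.9 and 17.6 CPM in cocktail-treated libraries, 19.7, 30.0, 20.3 and 25.7 CPM in obese libraries and 15.1, 10.6, 12.6 and 16.6 CPM in control-diet libraries, with obese above control-diet values in every pair of libraries. It was 1.74-fold higher, with a log2 fold change of 0.80 ± 0.16 (SE) and an edgeR adjusted p of 0.00344, and this call held in all 22 alternatives, including the intronic share as a covariate.

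Adamtsl5 had 141, 106 and 119 CPM in cocktail-treated libraries, 118, 129.7, 103 and 113 CPM in obese libraries and 79.7, 70.6, 85.9 and 90.0 CPM in control-diet libraries. All obese values were above all control-diet values, and it was 1.42-fold higher, with a log2 fold change of 0.51 ± 0.12 (SE) and an edgeR adjusted p of 0.00781. Adamtsl4, mutated in human dislocation of the lens, had 76.8, 80.2 and 84.3 CPM in cocktail-treated libraries, 75.8, 55.1, 74.7 and 57.6 CPM in obese libraries and 46.0, 42.1, 58.2 and 39.7 CPM in control-diet libraries. Control-diet replicate 3 was above obese replicates 2 and 4, so the groups overlapped, and the gene was 1.42-fold higher, with a log2 fold change of 0.50 ± 0.14 (SE) and an edgeR adjusted p of 0.0172, a call lost without control-diet replicate 4 or obese replicate 1. Without the 3 libraries with high atrial markers its log2 fold change was 0.43 (edgeR adjusted p = 0.0670). Adamtsl1 had 4.21, 10.4 and 8.01 CPM in cocktail-treated libraries, 4.37, 7.92, 6.70 and 4.30 CPM in obese libraries and 4.83, 3.93, 2.95 and 2.32 CPM in control-diet libraries, with overlap between obese and control-diet libraries, and did not pass there (adjusted p = 0.0861).

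Of the 5 lysyl oxidases, 1 was higher and 1 lower in obese hearts. Lox, the main collagen and elastin cross-linking enzyme, had 3.02, 3.70 and 4.87 CPM in cocktail-treated libraries, 2.50, 4.17, 5.59 and 2.08 CPM in obese libraries and 9.20, 12.2, 9.57 and 7.60 CPM in control-diet libraries. Every obese library was below every control-diet library, and Lox was 2.69-fold lower, with a log2 fold change of -1.43 ± 0.28 (SE) and an edgeR adjusted p of 0.00311. Loxl4 had 2.97, 2.86 and 2.42 CPM in cocktail-treated libraries, 2.79, 3.79, 2.25 and 2.08 CPM in obese libraries and 1.85, 1.33, 1.91 and 1.28 CPM in control-diet libraries. All obese values were above all control-diet values, and it was 1.71-fold higher, with a log2 fold change of 0.77 ± 0.22 (SE) and an edgeR adjusted p of 0.0208, a call lost without control-diet replicate 4 or obese replicate 2. Loxl1, which serves elastic fibres, had 8.52, 18.8 and 15 CPM in cocktail-treated libraries, 12.8, 23.1, 14.1 and 15.4 CPM in obese libraries and 25.3, 15, 23.1 and 28.3 CPM in control-diet libraries, and its groups overlapped (log2 fold change -0.49, SE 0.26, edgeR adjusted p = 0.178).

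Loxl2, which acts on basement membrane collagen, had 6.98, 11.3 and 9.87 CPM in cocktail-treated libraries, 10.1, 24.8, 8.93 and 14.0 CPM in obese libraries and 18.9, 13.0, 14.1 and 17.8 CPM in control-diet libraries. Obese replicate 2 was above all control-diet libraries and obese replicates 1 and 3 below them (log2 fold change -0.14, SE 0.29, edgeR adjusted p = 0.737). Loxl3 had 4.18, 5.90 and 5.91 CPM in cocktail-treated libraries, 4.66, 7.36, 6.54 and 4.41 CPM in obese libraries and 4.87, 3.83, 4.50 and 3.40 CPM in control-diet libraries, again with overlap (log2 fold change 0.47, SE 0.20, edgeR adjusted p = 0.0883), and was called higher under upper-quartile scaling and when protein-coding genes alone were tested (lowest edgeR adjusted p = 0.0383). Summed per length, the 5 lysyl oxidases were 8.64 ± 2.27 CPM per kb in cocktail-treated hearts (SD, n = 3), 10.3 ± 3.17 in obese hearts and 13.2 ± 1.84 in control-diet hearts (SD, n = 4 each). The 5 Adamts-like genes summed to 52.5 ± 4.02, 47.5 ± 2.00 and 31.5 ± 2.89 CPM per kb in the same order of groups, and the 22 metalloproteinases to 42.2 ± 8.88, 39.2 ± 6.63 and 37.1 ± 3.87. These sums are given as a description, with no test.

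Many of these genes are made by fibroblasts and vessel wall cells, and in bulk tissue fewer cells of a type and less RNA per cell cannot be told apart. Fibroblast markers summed to 429 to 854 CPM in cocktail-treated libraries, 357 to 897 CPM in obese libraries and 536 to 636 CPM in control-diet libraries, and 2 of 8 were higher in obese hearts. Smooth muscle and pericyte markers summed to 744 to 1207, 899 to 1214 and 1391 to 1591 CPM, with 2 of 8 lower in obese hearts, and endothelial markers to 764 to 1015, 717 to 881 and 905 to 1091 CPM, with 2 of 7 lower, in the same order of groups. The smooth muscle and endothelial sums of obese libraries were all below those of control-diet libraries. Single markers were less uniform: 4 of 8 smooth muscle and pericyte markers had a log2 fold change above 0 in obese hearts (median -0.03). The same held for 1 of 7 endothelial markers (median -0.22) and 6 of 8 fibroblast markers (median 0.47). Macrophage markers summed to 123 to 199, 119 to 233 and 147 to 228 CPM, with 0 of 7 called. The part of these cell types in the falls of Adamts5, Lox and Mmp14 was not tested.

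Cocktail-treated hearts were set against obese hearts to see how these genes differed with dasatinib and quercetin on the obesogenic diet. None of the 49 genes passed (edgeR lowest adjusted p = 0.354), and 0 of all 23779 genes did, 0%. At an unadjusted p under 0.05, 4 genes were lower and 0 higher, or Adamts4, Adamts6, Adamts7 and Adamts9, beside 5.16% of all genes lower and 5.04% higher, or 10.2% in either direction. DESeq2 called 2 of them, Adamts9 (adjusted p = 0.0264) and Adamts6 (adjusted p = 0.0370), and limma voom called 0. Over all 23779 genes DESeq2 called 51 higher and 80 lower in this comparison, and limma voom 0 higher and 1 lower. The cocktail-treated and obese libraries did not overlap in 5 genes (Adamts4, Adamts6, Adamtsl4, Mmp11 and Mmp24), or 10.2%, beside 10.1% of all genes. A p that misses the threshold does not show that levels were equal.

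Adamts6 had the smallest p in this comparison. It averaged 12.8 ± 1.75 CPM in cocktail-treated hearts (SD, n = 3) and 19.9 ± 3.51 CPM in obese hearts (SD, n = 4), and did not pass (log2 fold change -0.63, SE 0.15, edgeR adjusted p = 0.354). Adamts9 averaged 39.1 ± 14.4 and 83.7 ± 24.8 CPM (log2 fold change -1.10, SE 0.29, edgeR adjusted p = 0.356), and cocktail-treated replicate 1 was above obese replicate 3. For both genes the cocktail-treated mean was close to the control-diet mean, 10.6 ± 1.20 CPM for Adamts6 and 43.2 ± 5.47 CPM for Adamts9. Adamts4 averaged 0.152 ± 0.0167 and 0.422 ± 0.329 CPM (log2 fold change -1.46, SE 0.50, edgeR adjusted p = 0.402), and its cocktail-treated mean was further than its obese mean from the control-diet mean of 1.41 ± 0.396 CPM.

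Adamts7 averaged 35.9 ± 11.3 CPM in cocktail-treated hearts and 49.1 ± 6.17 CPM in obese hearts (log2 fold change -0.45, SE 0.19, edgeR adjusted p = 0.466), with cocktail-treated replicate 1 level with the obese libraries. Mmp24 averaged 1.75 ± 0.471 and 1.24 ± 0.0993 CPM (log2 fold change 0.50, SE 0.23, edgeR adjusted p = 0.498), with all cocktail-treated values above all obese ones. Loxl2 averaged 9.38 ± 2.19 and 14.4 ± 7.22 CPM (log2 fold change -0.62, SE 0.32, edgeR adjusted p = 0.524), where obese replicate 2 was far above the rest. The log2 fold change of Adamts7 was -0.01 at the end nearest 0 of its 22 alternatives, and that of Adamts4 ran from -1.75 to -0.76.

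**Figure D5:**
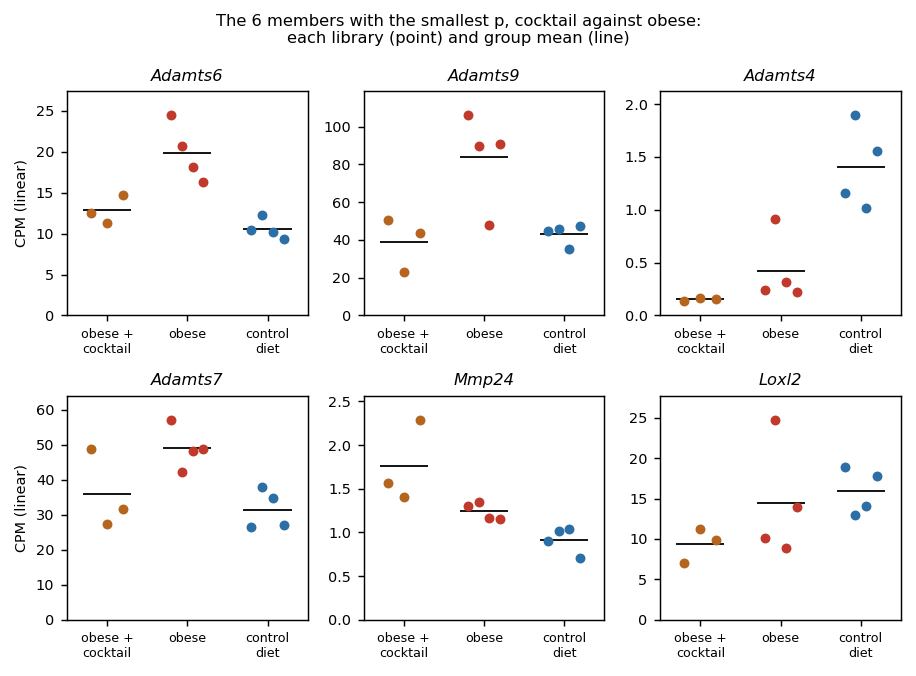
CPM (linear axis from 0) of the 6 genes with the smallest p for cocktail-treated against obese hearts, one point per library with a line at the mean of cocktail-treated obese (n = 3), obese (n = 4) and control-diet hearts (n = 4). The cocktail-treated points are apart from the obese points in Adamts6, Adamts4 and Mmp24, and no gene passed the adjusted threshold.

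The comparison of cocktail-treated with control-diet hearts uses the same control libraries as the one of obese with control-diet hearts, so overlap between the 2 is not independent. It gave 16 of 49 genes, or 32.7%, beside 15.8% of all genes, with 11 higher (22.4%, beside 7.43%) and 5 lower (10.2%, beside 8.39%). At an unadjusted p under 0.05 there were 26 genes, beside 32.1% of all genes, and groups did not overlap in 19 genes, beside 27.9% of all genes. The higher count was 7 without control-diet replicate 1, 7 without replicate 3 and 6 without replicate 4. It was 6 without cocktail-treated replicate 2 and 4 without cocktail-treated replicate 3. Over all genes the higher count in these fits was 821, 1085, 783, 1228 and 459, beside 1766 with all libraries. Without the 3 libraries with high atrial markers, which leaves 1 cocktail-treated library that is assumed to vary like the others, 3 genes were higher and 2 lower. With the intronic share as a covariate 3 were higher and 3 lower, beside 209 higher and 301 lower of all 23779 genes.

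Adamts4 was 9.13-fold lower, with a log2 fold change of -3.19 ± 0.51 (SE) and an edgeR adjusted p of 0.00245 in cocktail-treated hearts. The other falls were those of Lox, 2.49-fold lower (edgeR adjusted p = 0.0158), Adamts5, 2.22-fold lower (edgeR adjusted p = 0.00105), Mmp14, 1.90-fold lower (edgeR adjusted p = 0.00774), and Mmp11, 1.68-fold lower (edgeR adjusted p = 0.00466). Beside the obese falls, Adamts5 was 2.22-fold lower in cocktail-treated and 2.28-fold lower in obese hearts, and Lox 2.49-fold and 2.69-fold lower. Among the rises, Adamtsl2 was 4.05-fold higher, with a log2 fold change of 2.02 ± 0.22 (SE) and an edgeR adjusted p of 0.000388. Adamts10 was 2.10-fold higher (edgeR adjusted p = 0.00179). Adamts20 was 2.54-fold, Adamts17 2.07-fold, Adamtsl4 1.73-fold, Loxl4 1.72-fold and Adamtsl5 1.49-fold higher. These 12 genes were called in both comparisons with control-diet hearts. The cocktail-treated call of Loxl4 was lost without any 1 of the 4 control-diet or 3 cocktail-treated libraries or obese replicate 1, that of Adamts20 without control-diet replicate 1 or 3 or cocktail-treated replicate 2 or 3, that of Adamts17 without control-diet replicate 4 or cocktail-treated replicate 3, and that of Lox without cocktail-treated replicate 1. Without the 3 libraries with high atrial markers, 1 cocktail-treated library was left, from which it cannot be judged whether a call holds. Log2 fold changes were then -3.38 for Adamts4 (-3.19 with all libraries), -1.67 for Lox (-1.32) and -0.75 for Mmp11 (-0.75). Those of rises were 0.73 for Adamtsl4 (0.79), 0.93 for Adamts17 (1.05), 0.60 for Adamts20 (1.34) and 0.91 for Loxl4 (0.79).

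A further 4 genes were called in cocktail-treated and not in obese hearts. Timp3 was 1.76-fold higher, with a log2 fold change of 0.82 ± 0.22 (SE) and an edgeR adjusted p of 0.0272, Mmp24 1.91-fold higher (edgeR adjusted p = 0.0205), Mmp19 1.85-fold higher (edgeR adjusted p = 0.0200) and Adamtsl1 2.15-fold higher (edgeR adjusted p = 0.0377). Without the 3 libraries with high atrial markers, which leaves 1 cocktail-treated library, all 4 log2 fold changes were smaller. They were 0.64 for Timp3 (0.82 with all libraries), 0.78 for Mmp24 (0.93), 0.37 for Mmp19 (0.89) and 0.27 for Adamtsl1 (1.11). All 4 calls were lost without cocktail-treated replicate 3. They were also lost without control-diet replicate 1 (Timp3 and Mmp24), 2 (Adamtsl1), 3 (Timp3 and Adamtsl1) or 4 (Timp3, Mmp24 and Adamtsl1), or cocktail-treated replicate 2 (Timp3, Mmp19 and Adamtsl1). The 8 genes called in obese and not in cocktail-treated hearts were Adamts14, Adamts3, Adamts6, Adamts7, Adamts9, Adamtsl3, Mmp23 and Mmp9. The direct comparison of cocktail-treated with obese hearts tests these differences, and no gene passed it.

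Genes of the same matrix pathways were read in the same fit. Of all genes, 14.4% were higher and 15.7% lower in obese than in control-diet hearts. Among 19 collagen maturation enzymes and chaperones, 6 were higher and 4 lower in obese hearts, with a median log2 fold change of 0.30 beside 0.11 over all genes. Bmp1, which removes the carboxy-terminal propeptide of procollagens and activates Lox, averaged 54.1 ± 11 CPM in obese hearts and 24.5 ± 2.91 CPM in control-diet hearts and was 2.21-fold higher (edgeR adjusted p = 0.000307). P4ha2, a prolyl hydroxylase subunit, was 2.12-fold higher (edgeR adjusted p = 0.000381), and P3h4, a partner of a lysyl hydroxylase, was 1.99-fold lower (edgeR adjusted p = 0.000290). Among 16 protease activators and other inhibitors, 0 were higher and 4 lower (median 0.07). Bsg (Emmprin), a membrane protein that induces metalloproteinases, was 2.46-fold lower (edgeR adjusted p = 0.000489), and Cst3, a cathepsin inhibitor, was 1.59-fold lower (edgeR adjusted p = 0.00180).

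Among 16 elastic fibre genes, 2 were higher and 1 lower (median 0.36). Ltbp2 was 5.54-fold higher (edgeR adjusted p = 0.0355), Emilin1 1.42-fold higher (edgeR adjusted p = 0.0479), and Fbn1, the fibrillin that Adamts10 and Adamtsl2 bind, 1.60-fold lower (edgeR adjusted p = 0.0397). Among 15 collagen chains, 4 were higher and 2 lower (median 0.59), the 3 with the smallest p being Col5a1, 1.67-fold higher (edgeR adjusted p = 0.00363), Col15a1, 2.32-fold higher (edgeR adjusted p = 0.00492), and Col6a2, 1.68-fold higher (edgeR adjusted p = 0.00590). Among 18 proteoglycans and glycoproteins, 6 were higher and 1 lower (median 0.56). Thbs2, a matricellular protein through which Mmp2 is cleared, averaged 28.0 ± 4.63 CPM in obese hearts and 71.0 ± 8.32 CPM in control-diet hearts and was 2.54-fold lower (edgeR adjusted p = 0.000248). Bcan, an aggrecanase substrate, averaged 0.485 ± 0.287 and 0.0608 ± 0.0535 CPM in the same groups (adjusted p = 0.0112), and Hapln1, a link protein of versican and hyaluronan, 1.49 ± 1.65 and 0.0337 ± 0.0673 CPM (adjusted p = 0.0245), so both rest on few control-diet counts. In cocktail-treated against obese hearts 0 genes of these 5 lists were called.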

How the data were processed

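Gene expression was measured by paired-end RNA sequencing of TRIzol-extracted heart RNA. The deposited table holds whole-number counts per Ensembl gene for 11 libraries. Per the submitters' processing notes the authors used cutadapt, HISAT2, StringTie and the genome build GRCm38; which annotation and counting settings were used, and whether strand was, is not given there, so genes that overlap on opposite strands are uncertain. Nor is it given whether the counts are counted reads or coverage-based estimates.

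Genes were kept with edgeR's filterByExpr (minimum count 10, minimum total 15), which left 23779. After TMM scaling, edgeR 4.0.16 fitted the 3 groups jointly over the 11 libraries (robust quasi-likelihood, glmQLFTest, R 4.3.3). Adjusted p-values are Benjamini-Hochberg over all genes tested, with a threshold of 0.05. A standard error is the absolute log2 fold change over the square root of F. CPM were computed from the counts with scaled library sizes, and library values are listed in order of replicate number. The common biological coefficient of variation was 0.259. Per-length levels used the union of exons in GENCODE M21. The fitting script was tested on simulated data. No 2 libraries of a group agreed within sampling noise.

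The genes, lists and alternatives were chosen with earlier results of these data known. Named were all genes called in any comparison, the 6 with the smallest p for cocktail-treated against obese hearts, and 17 core genes in any case; of related lists, the called genes with the 3 smallest p, of which 1 is not reported here. Alternatives were RLE and upper-quartile scaling, 2 other low-count filters, a fit of 2 groups at a time, protein-coding genes alone, DESeq2 1.42.0, limma 3.58.1 voom, a replicate block, a covariate for the intronic share, and leaving out each library or the 3 with most atrial RNA.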

Additional observations from a re-analysis of the deposited data

Results flagged for a closer look

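In 98 groups of 4 libraries examined (49 genes, obese and control-diet groups), 3 held a library that stood apart from the other 3 by Dixon's test, and chance alone flags about 1 group in 20. Mmp11, which was called lower in obese than in control-diet hearts, was 5.46 CPM in obese replicate 4 and 4.81 to 4.91 CPM in the other obese libraries, and this value was the nearest of them to the control-diet range. Mmp12, the macrophage elastase, was 0.0514 CPM in obese replicate 1 and 0.440 to 0.639 CPM in the other obese libraries. Mmp3, stromelysin-1, was 6.51 CPM in control-diet replicate 4 and 3.99 to 4.13 CPM in the other control-diet libraries.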

How the results depend on the processing

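Counts of called genes kept within 1.5 times of the values given under RLE and upper-quartile scaling, both other filters on low counts, fits of 2 groups at a time, protein-coding genes alone and limma voom. With the intronic share as a covariate, obese against control diet gave 2 genes higher and 0 lower, beside 35 and 86 of all 23779 genes. Cocktail-treated against control diet gave 3 higher and 3 lower, beside 209 and 301 of all genes. DESeq2 called 2 genes lower in cocktail-treated against obese hearts, beside 80 of all 23779 genes, with the cause not tested. Without the 3 libraries of highest atrial level, cocktail-treated against control diet rested on 1 cocktail-treated library, and its calls are not counted here. Leaving out 1 library at a time, obese against control diet gave 8 to 16 higher and 5 to 7 lower, cocktail-treated against control diet 4 to 13 higher and 5 to 6 lower, and cocktail-treated against obese 0. Under upper-quartile scaling the median log2 fold change of all genes for obese against control diet was 0.21 in place of 0.11, and 16 genes were higher and 5 lower in place of 14 and 6; over all genes the split was 4378 higher and 2926 lower in place of 3429 and 3737.

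Of single-gene values under the alternatives, 1010 kept direction and call, 109 lost the call, 8 gained it and 17 turned sign, none of the last being called. The values that turned sign were log2 fold changes of obese over control diet. Timp1 was -0.20 under the replicate block, -0.14 under limma voom and -0.0761 without the 3 atrial-high libraries, and ran from -0.22 (without obese replicate 2) to 0.53 when 1 library was left out, turning also without obese replicate 3. Timp2 was -0.0512 under the replicate block, -0.0312 under limma voom and -0.29 without the 3 atrial-high libraries, and ran from -0.29 (without obese replicate 3) to 0.29 when 1 library was left out, turning also without control-diet replicate 2. With the intronic share as a covariate, Loxl1 was 0.51, Loxl2 0.66 and Timp3 -0.17. Loxl2 was 0.0304 without the 3 atrial-high libraries and ran from -0.53 to 0.0325 (without obese replicate 3) when 1 library was left out. Adamts1 ran from -0.0424 (without obese replicate 2) to 0.29, turning also without control-diet replicate 2.

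The replicate numbers of the titles were not taken to pair the libraries, since no label says so and same-numbered libraries correlated unevenly, from -0.23 to 0.40, in their deviations from group means; the highest values were 0.40 and 0.34, for obese and cocktail-treated replicates 1 and 3. Set against the 3 or 4 libraries of each other group in turn, a library correlated best with its own number in 11 of 20 cases, a hint of pairing from the data and not from the design. With the replicate number as a block, 14 genes were higher and 7 lower in obese against control diet, 0 and 0 in cocktail-treated against obese, and 9 and 5 in cocktail-treated against control diet. Depth limits the 7 tested genes under 1 CPM in each group.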
